A study of Mus musculus with 3 samples.

Results

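In this study, 4 stretches of mouse chromatin carried strong H3K4me3 in wild-type hippocampus and much shorter H3K4me3 peaks in a Huntington's disease model. They are the regions assigned to Apc, Ppp3ca, Pex5l and H3f3b. H3K4me3, trimethylation of lysine 4 on histone H3, marks active and poised promoters. The regions were chosen by position, as overlapping WT and HD peaks that touch a fixed window of 10 to 20 kb for each gene, and each had a wild-type peak score above 1000. A weak WT peak that touches the Ppp3ca window but overlaps no HD peak is described apart and not counted in the Ppp3ca lengths. They are 4 of 20211 regions formed by overlapping peaks of both libraries, and 4 of the 8223 regions marked in both libraries whose highest wild-type score was above 1000, called strong regions here. Their shorter length in the disease model was part of the reason they were picked. Their lengths and edges are therefore a description, with no test.

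Chromatin came from the hippocampus of adult male C57/DBA F1 hybrid mice. The HD library was made from N171-82Q transgenic animals, which carry an N-terminal fragment of mutant huntingtin under the promoter of the prion protein gene. The WT library was made from their wild-type littermates. Each immunoprecipitation pooled the tissue of 3 mice and gave 1 library per genotype. There was no spread between replicates against which a difference could be set, and every difference below is between these 2 libraries. The files give no read counts, so library depth is unknown, and its part in the shorter HD peaks was not tested. In pooled hippocampus, fewer cells with the mark and less of it per cell cannot be told apart.

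H3K4me3 is deposited around transcription start sites and commonly spreads over the nucleosomes at the beginning of the transcribed body, so that the width of a peak and its strength are separate properties of a promoter. Broad domains of the mark are known from genes of cell identity and from highly transcribed genes. Apc encodes a scaffold of the complex that targets beta-catenin for degradation in Wnt signalling, and it also binds microtubules. Ppp3ca encodes a catalytic subunit of calcineurin, the calcium-activated protein phosphatase that dephosphorylates NFAT factors and is abundant in hippocampal neurons. Pex5l encodes TRIP8b, an auxiliary subunit that controls the trafficking and gating of HCN channels in the dendrites of pyramidal cells. H3f3b is one of the genes for histone H3.3, the H3 variant that is placed into chromatin outside DNA replication.

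The RefSeq promoter of H3f3b is shown because it was the promoter found for these genes in the sequence table used here, and because its strand fixes which side of the H3f3b peak is upstream. It lies on the minus strand of GRCm38.p6 at chr11:116024455-116024754 and runs from 250 bases before the start of the gene to 50 after it. This is another build than that of the peaks, so its place within them was not determined. Capitals mark matches to 4 motifs of promoter-binding factors, each searched on both strands and spelled out after the sequence.

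H3f3b promoter: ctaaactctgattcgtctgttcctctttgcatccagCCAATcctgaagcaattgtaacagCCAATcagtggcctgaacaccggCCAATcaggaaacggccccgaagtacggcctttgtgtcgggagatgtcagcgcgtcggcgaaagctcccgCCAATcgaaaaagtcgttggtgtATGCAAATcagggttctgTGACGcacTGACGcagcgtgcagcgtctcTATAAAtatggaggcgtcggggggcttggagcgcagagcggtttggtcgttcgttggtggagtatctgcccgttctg

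The motif CCAAT, the core of the NF-Y site, matched 4 times in the H3f3b promoter, at 214, 190, 167 and 97 bases before the start. It occurred on either strand in 37.4% of the 32851 promoters of the table, all cut to the same window. The octamer ATGCAAAT, bound by POU factors, matched once, 74 bases before the start, and occurred in 1.74% of the promoters. The CRE half-site, TGACG, matched 2 times, at 56 and 48 bases, and occurred in 20.8%. The TATA box, spelled TATAAA, matched once at 27 bases, and occurred in 13.6%. All matches were on the strand of the gene, and none overlapped another. The H3f3b promoter had 24 CpG dinucleotides, against a median of 7, and 80.0% of the promoters had fewer. GC made up 55% of the bases of the H3f3b promoter. A match describes letters of the sequence and shows no binding.

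The strongest relative shortening was at Apc. In the WT library 1 peak spanned 4663 bp on chromosome 18, from 34406266 to 34410928 (mm9, counted from 1), with a score of 1552.97. In the HD library 1 peak spanned 2062 bp, from 34406429 to 34408490, with a score of 2470.64. The peak was thus shorter in HD by 2601 bp and covered 44.2% of the WT length, a log2 ratio of HD over WT of -1.18. The left HD edge lay 163 bp inside the WT edge and the right HD edge lay 2438 bp inside it. Almost all of the lost length, 93.7%, was on the right, and the HD peak ended before the middle of the WT peak. The stretch covered in WT alone holds no HD peak by definition, and it may still carry some of the mark. Undivided in both libraries, the Apc region had no gap in either.

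The Ppp3ca region was the widest of these regions and lost the most length. Its WT peak spanned 9538 bp on chromosome 3, from 136331596 to 136341133, with a score of 1825.97. It was wider than 99.6% of strong regions. The HD library had 2 peaks there. The first ran from 136331762 to 136336216, 4455 bp with a score of 3100. The second ran from 136336233 to 136336852, 620 bp with a score of 65.47. A gap of 16 bp separated them. Together the HD pieces covered 5075 bp, 4463 bp less than WT, which is 53.2% of the WT length and a log2 ratio of -0.91.

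The edges of the Ppp3ca peak differed on the right. The left HD edge was 166 bp inside the WT edge and the right HD edge was 4281 bp inside it, so that 96.3% of the edge shift was on that side. The small HD piece at the new right end scored higher than 6.66% of all HD peaks and was wider than 0.418% of them. Without it the right edge would lie 4917 bp inside and the log2 ratio would be -1.10. The WT library also had a weak, separate peak farther right, at 136343952 to 136345204. It spanned 1253 bp with a score of 58.38, began 2818 bp after the main WT peak and had no HD counterpart. With it counted, the right edge shift would be 8352 bp and the log2 ratio -1.09. Its score was higher than that of 3.63% of WT peaks. After the second HD piece the next HD peak lay 667102 bp away.

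At Pex5l, also on chromosome 3, the loss was on the other side. The WT peak spanned 5004 bp, from 33037898 to 33042901, with a score of 1595.57. The HD peak spanned 2438 bp, from 33040323 to 33042760, with a score of 2354.44. The HD library thus covered 2566 bp less, 48.7% of the WT length and a log2 ratio of -1.04. The left HD edge lay 2425 bp inside the WT edge, whereas the right edges differed by 141 bp. The left side held 94.5% of the edge shift. Each library had a single peak here, with no gap.

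H3f3b had the narrowest peak. In WT it spanned 2916 bp on chromosome 11, from 115883375 to 115886290, with a score of 1657.60, and 47.2% of strong regions were narrower. In HD it spanned 1555 bp, from 115884473 to 115886027, with a score of 3100, and 0.912% of strong regions were narrower in HD. The peak was shorter by 1361 bp and covered 53.3% of the WT length, a log2 ratio of -0.91. The left HD edge lay 1098 bp inside the WT edge and the right HD edge 263 bp inside it. The left side held 80.7% of the shift, the least one-sided of these regions. Both libraries had 1 peak without a gap.

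**Figure D1:**
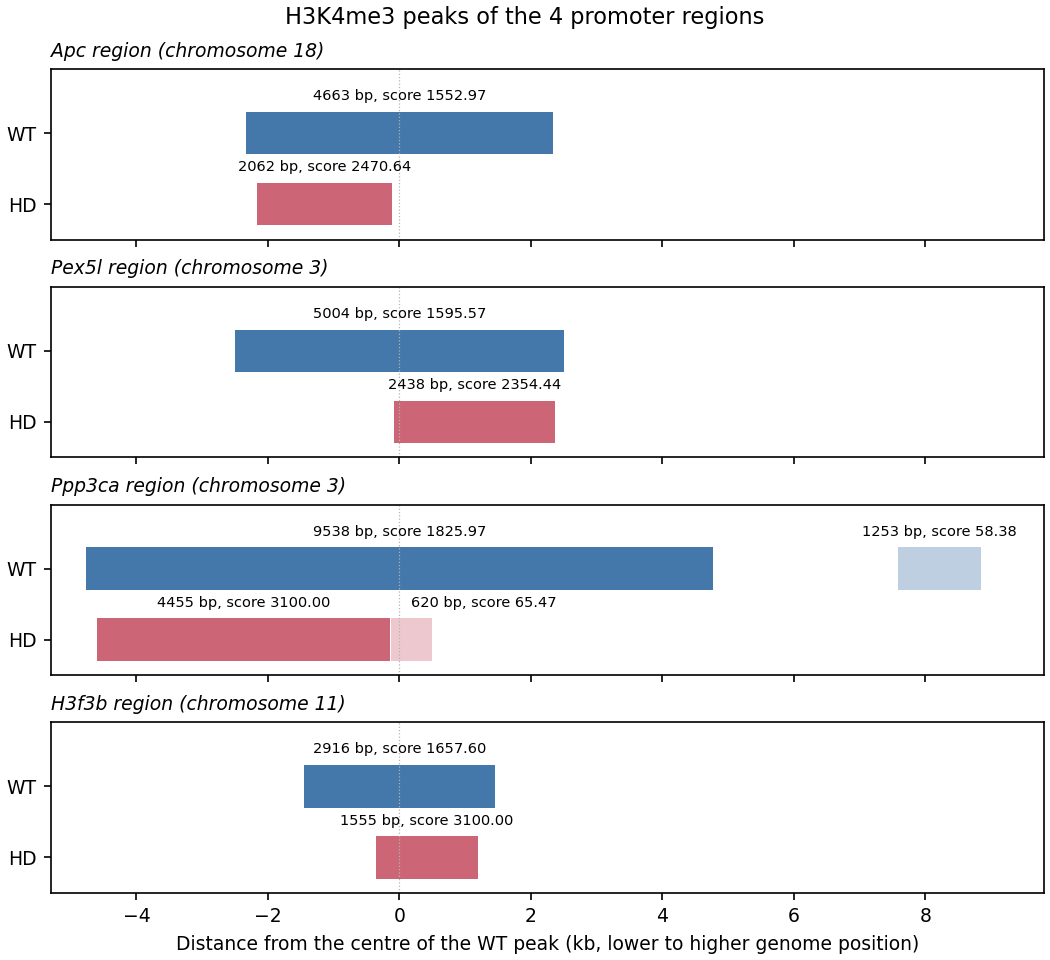
Peaks of the WT library (blue) and the HD library (red) at the 4 regions, drawn to scale by their distance in kb from the centre of the main WT peak, with the width and the authors' score of each peak. Pale bars have a score below 100. The HD peak ends well inside the WT peak on the right at Apc and Ppp3ca and on the left at Pex5l and H3f3b.

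Read along the genes, the longer loss was downstream, for H3f3b by its strand in the table and for the others by background knowledge of their strand. H3f3b lies on the minus strand in the RefSeq table, so the 1098 bp lost on the left were downstream and the 263 bp lost on the right were upstream. For the other genes the tables used here gave no strand. As background, Apc and Ppp3ca are read toward higher positions and Pex5l toward lower positions. On that background the longer loss, 2438 bp at Apc, 4281 bp at Ppp3ca and 2425 bp at Pex5l, was downstream too, and the upstream edges differed by 141 to 166 bp. Where within each peak transcription starts was not determined, because no annotation in mm9 was used. For the same reason the share of strong regions with the longer loss downstream is unknown, and nothing is read from the shared side. The gene names are those of the windows and were not checked by position. In the RefSeq table Apc spans 101894 bp between Epb41l4a and Srp19, Pex5l 195377 bp between Usp13 and Ttc14, Ppp3ca 268014 bp between Bank1 and Emcn, and H3f3b 4079 bp between Galk1 and Unk. The Apc, Pex5l and Ppp3ca peaks were thus short beside their genes in both libraries, whereas the WT peak of H3f3b, 2916 bp, was closer in length to its gene than the HD peak, 1555 bp.

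The opposite edge of each region shifted about as far as the edges of many strong regions. The smaller edge shift was 163 bp at Apc, 141 bp at Pex5l, 166 bp at Ppp3ca and 263 bp at H3f3b. Over the strong regions the median left shift was 85 bp inward (quartiles -37.5 and 228 bp) and the median right shift 89 bp inward (quartiles -32 and 229 bp). Of the 16446 left and right edges of strong regions, 60.5 to 65.1% either moved outward or shifted inward by less than the smaller shift of Apc, Pex5l or Ppp3ca. For the smaller shift of H3f3b this share was 79.4%. The larger shifts lay at the far end of the same edges. That of Ppp3ca ranked 1, that of Apc 6 and that of Pex5l 7, whereas that of H3f3b ranked 181.

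Where a strong region retracted by over 1 kb, it did so at 1 edge with 1 exception. An HD edge lay over 1 kb inside the WT edge in 234 of them, 2.85%, the left edge in 132 and the right edge in 103. Both edges did so in 1 region (0.0122%). Apc, Pex5l, Ppp3ca and H3f3b all had 1 such edge, 2 on the left and 2 on the right. The HD peaks reached beyond the WT edges on neither side in these 4 regions and in 47.5% of strong regions. Because the regions were chosen for their shorter HD peaks, nothing is read from these counts.

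**Figure D2:**
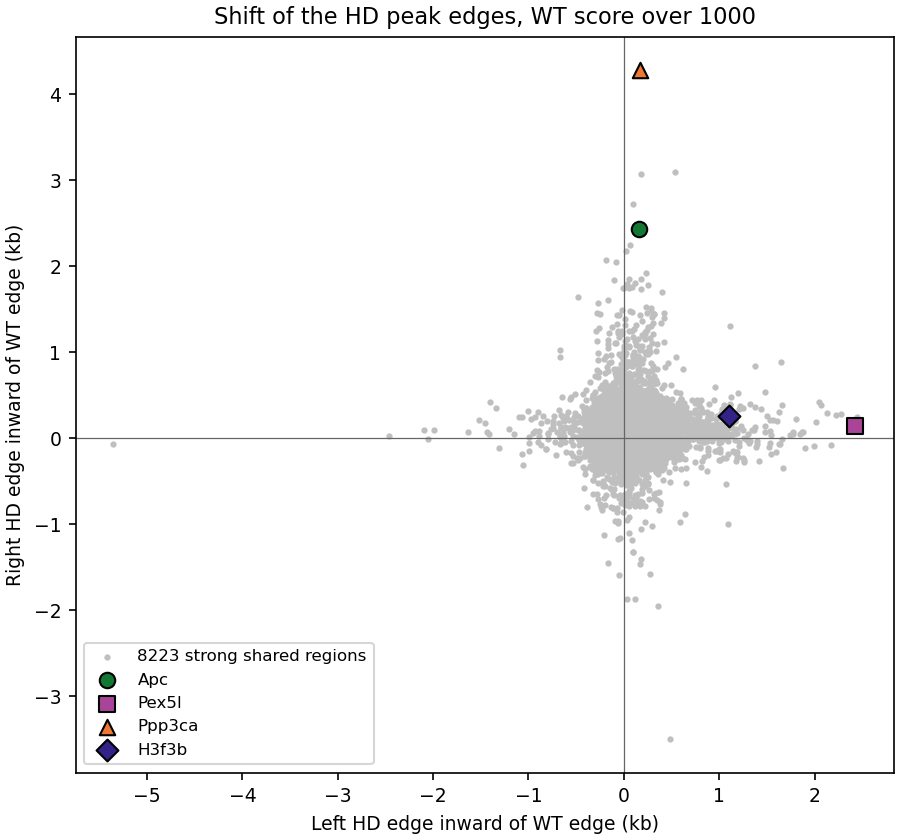
Distance in kb by which the left (x axis) and right (y axis) HD edge lies inside the WT edge, with negative values outside it, for 8223 strong regions (grey) and the 4 regions (coloured symbols). Large shifts lie along the axes: Ppp3ca and Apc stand high on the right-edge axis, and Pex5l and H3f3b far along the left-edge axis.

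Set among the strong regions, these were at the low end of the range of log2 ratios, which follows from their choice for shorter HD peaks. Their HD length itself was not always short. In HD, 93.5% of strong regions were narrower than Ppp3ca, 32.7% than Pex5l, 13.1% than Apc and 0.912% than H3f3b. The median log2 ratio of strong regions was -0.09 (quartiles -0.20 and 0.00), with an SD over regions of 0.18. HD was shorter by any length in 74.2% of them, by over 1.5-fold in 99 regions (1.2%) and by over 2-fold in 3 (0.0365%). All 4 of the described regions were over 1.5-fold shorter, and Apc and Pex5l over 2-fold. Of the strong regions, 0.0851% were over 1.5-fold longer in HD. Ordered by log2 ratio, Apc was at rank 1, Pex5l at 3, Ppp3ca at 4 and H3f3b at 5. Rank 2 was a region on chromosome 5 at 151989998 to 151993671 (log2 ratio -1.15), and rank 6, just beyond H3f3b, was one on chromosome 1 at 145487106 to 145491818 (-0.88). Both are named after their values were seen. By length lost the order was different, with Ppp3ca at rank 1, Apc at 8, Pex5l at 10 and H3f3b at 144. The score limit itself was far from these regions: their lowest WT score was 1552.97, and the shared regions on either side of the limit scored 1000.5 and 999.59.

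Strong regions of like WT width kept more of their length. Because the described regions were chosen for shorter HD peaks, this contrast was set by the choice and nothing is read from it. Those with a WT length of 80 to 125% of that of Ppp3ca numbered 83, and they kept a median of 95.0% of their length in HD, the lowest 63.0%, against 53.2% at Ppp3ca. For Apc there were 1669 such regions with a median of 93.0%, and for Pex5l 1352 with a median of 93.5%. For H3f3b there were 4591 with a median of 93.0%. The described regions were left in each other's sets, so Pex5l was among those like Apc and Apc among those like Pex5l. None of them kept less than Apc, Ppp3ca or H3f3b, and 1, which was Apc itself, kept less than Pex5l. A larger shift at an edge occurred in 8 of the 4591 regions as wide as H3f3b. More HD than WT peaks, the division seen at Ppp3ca, occurred in 2.87% of strong regions. This share was 0.622% with peaks within 1 kb merged and 1.52% with a minimum score of 100, and under either rule Ppp3ca had 1 HD piece. Over the 279 gaps between HD peaks of 1 strong region the median was 131 bp, and 9.32% of the gaps were no longer than the 16 bp at Ppp3ca.

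**Figure D3:**
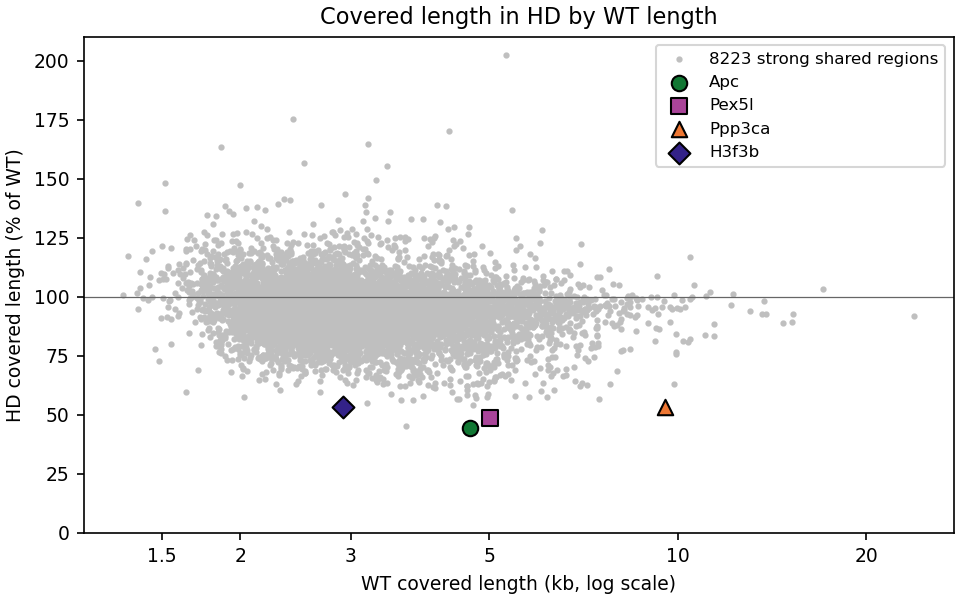
Length covered in HD as a percentage of the WT length (y axis) against the WT length in kb (x axis, log scale) for 8223 strong regions (grey) and the 4 regions (coloured symbols). The 4 regions lie between 44.2 and 53.3%, at the lower border of the grey points.

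The main HD peak of each region ranked in the upper part of its own list, whereas the second HD piece at Ppp3ca, with a score of 65.47, ranked near the bottom. The score is the authors', with no unit named in the files. Such scores rise with sequencing depth, so it was ranked within a list and not compared between lists. In the WT list the score was at percentile 74.6 for Apc, 75.8 for Pex5l, 82.0 for Ppp3ca and 77.6 for H3f3b. In the HD list it was at percentile 78.1 for Apc and 76.0 for Pex5l, and at 93.0 for Ppp3ca and H3f3b, whose value of 3100 was held by 2184 HD peaks in all. Among these 2184 peaks the median width was 3357 bp. Narrower than the H3f3b peak were 4 of them, 0.183%, whereas 78.8% were narrower than the main Ppp3ca piece. The percentile of 93.0 is the middle of this tie, and the shared value does not order the peaks that hold it. Because both regions were chosen for shorter HD peaks, nothing is read from these widths.

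Regions beside these 4 did not show such losses in most cases. The 4 were chosen for shorter HD peaks, so smaller losses beside them do not show that the loss was local. The 3 nearest regions on each side of each gene's region, were 24 in all. They were not used in the choice, except the WT-only peak right of Ppp3ca, which touches the Ppp3ca window. Marked in both libraries were 20, of which 16 were shorter and 4 longer in HD, beside 69% shorter over all 17367 shared regions. Their median log2 ratio was -0.11, beside -0.09 over all shared regions. Over 1.5-fold shorter was 1 of the 20, beside 2.79% of all shared regions. That one was a weak region 143 kb left of Apc, where the WT peak spanned 1153 bp (score 169.7) and the HD peak 706 bp (score 164.09), a log2 ratio of -0.71.

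Nearest to the Apc region was another strong peak, 23.4 kb to its left at 34379582 to 34382827. Which of these regions is the main Apc promoter was not determined. Its WT peak spanned 3088 bp (score 2479.38) and its HD peak 2905 bp (score 2880.30), a log2 ratio of -0.09. To the right of Apc, 78.7 kb away, a region went from 2587 bp in the WT library to 2425 bp in the HD library (-0.09). Another strong region, 120.2 kb to the right, went from 2778 to 2836 bp (0.03). The 3 strong regions among the flanks of Apc thus had log2 ratios from -0.09 to 0.03. An HD-only peak of 1099 bp lay 128 kb to the left, with a score of 51.37, near the low end of its list.

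H3f3b had close neighbours on both sides. The nearest on the right, 4.31 kb away at 115890603 to 115893355, had a WT peak of 2723 bp and an HD peak of 2666 bp, a log2 ratio of -0.03. The nearest on the left, 8.43 kb away, went from 1883 bp in the WT library to 1656 bp in HD (-0.19), and the next, 16.1 kb away, from 1657 to 1256 bp (-0.40). The third on the left had a log2 ratio of -0.07, and the other two on the right had -0.13 and 0.17. Of the 6 neighbours of H3f3b, 5 were thus shorter in HD, each by less than H3f3b.

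At Pex5l and Ppp3ca the nearest regions marked in both libraries were 319.8 kb away or farther. How common such spacing is was not computed. To the right of Pex5l the next region was 655 kb away. Its length went from 2692 bp in the WT library to 2597 bp in HD (log2 ratio -0.05). Farther right, a region at 699 kb was longer in HD, from 1863 to 2047 bp (0.14). An HD-only peak of 961 bp, with a score of 87.24, lay at 812 kb. To the left of Pex5l the nearest was a WT-only peak 48.4 kb away, 1028 bp with a score of 62.06. It was followed at 319.8 kb by a region that went from 2599 to 2499 bp (-0.06). The third on the left, at 400.3 kb, had a log2 ratio of -0.31. The Ppp3ca region had the WT-only peak described above 2.82 kb to its right, and its nearest shared regions were 663 kb away on that side and 841 kb away on the left. Its 5 shared neighbours were all shorter in HD, with log2 ratios from -0.43 to -0.20. Those at 663, 869 and 1154 kb were weak, with WT scores of 81.57, 113.98 and 50.53. Their log2 ratios were -0.38, -0.43 and -0.28. Those at 841 and 976 kb, with WT scores of 666.74 and 1446.35, had -0.20 and -0.22. Over the 24 neighbours of the 4 regions, 2 were WT-only and 2 HD-only, so nothing is read from either kind.

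**Figure D4:**
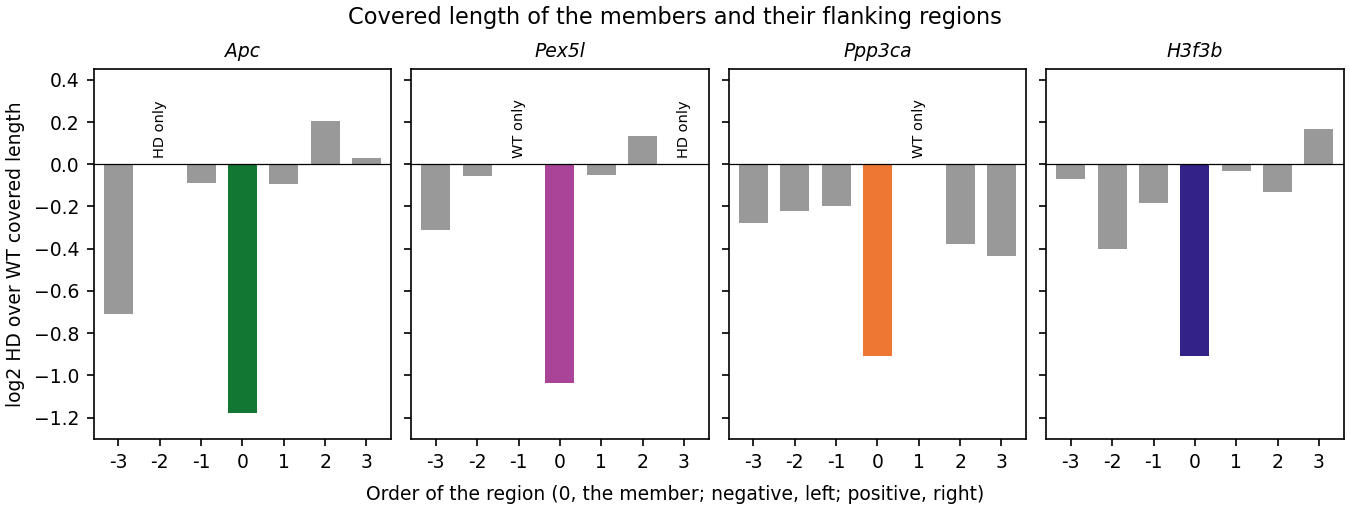
HD over WT covered length as a log2 ratio (y axis) for each region (coloured bar, order 0) and its 3 nearest regions on either side (grey bars, in order of distance and not to scale). Regions of 1 library are marked with its name. Each coloured bar, from -1.18 to -0.91, is longer than the grey bars in its panel. The coloured regions were chosen for shorter HD peaks, so nothing is read from this contrast.

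Other strong regions also retracted mainly at 1 edge. Those given here shortened less by log2 ratio than the gene they resemble. This follows from the choice of genes with shorter HD peaks, so nothing is read from it. For each gene the 2 strong regions of like WT width with the closest pair of edge shifts are given here, by position only. Most like Apc was chromosome 16 at 18126693 to 18132194, whose left edge was 62 bp and right edge 2247 bp inside (log2 ratio -0.79). Next was chromosome 10 at 4977382 to 4982204 (-79 and 2056 bp, -0.78), where a negative shift lies outside the WT edge. Most like Pex5l was chromosome 6 at 98973246 to 98979421, whose left edge was 2277 bp and right edge 278 bp inside (-0.79), with 2 HD peaks. After it came chromosome 19 at 28081633 to 28087404 (2167 and -82 bp, -0.66). Nearest to H3f3b were chromosome 10 at 75225350 to 75228541 (1049 and 385 bp, -0.86) and chromosome 2 at 150491449 to 150495016 (969 and 226 bp, -0.59). Ppp3ca had no close match: the nearest, chromosome 11 at 56824030 to 56833878, differed from it by 1242 bp over both edges (532 and 3094 bp, -0.66), and the next, chromosome 2 at 136537291 to 136545172, by 1553 bp (-0.67).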

How the data were processed

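H3K4me3 was profiled by chromatin immunoprecipitation and single-end sequencing (50 bases) in hippocampus. Per the submitters' processing notes, CASAVA 1.8.2, BWA 0.5.9 and SAMtools were used with builds NCBIM37 and mm9. The authors deposited 1 peak list per library with positions and a score, 18515 WT and 19631 HD peaks. MACS is named in the peak names; its version and settings were not stated in any source used here. The input library was not used.

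Peaks of both lists that overlapped by at least 1 bp were joined into regions. Covered length, outer edges, pieces and gaps were computed with Python 3.11.15, numpy 2.4.6 and pandas 2.3.3, and plots with matplotlib 3.10.9. Fold thresholds were 1.5 and 2. With 1 library per genotype no p-value was computed. The region code was tested on simulated trims and divisions of the WT list. The named regions are the 4 genes' regions, their 3 nearest regions per side and the 2 most alike strong regions. Alternatives merged peaks within 1 kb, required a score of 100 in both lists, took every peak touching the window, used the outer span, subtracted the median of strong regions, moved the score limit to 500 or 2000, and left out the sex chromosomes. Members and lists were chosen with earlier results of these data known. The planned rule used strand from a gene table alone; the strands of Apc, Pex5l and Ppp3ca were added as background. Related gene lists and marker genes of hippocampal cells were not analysed here, because the gene table is of GRCm38.p6 and its positions do not apply to mm9 peaks. The labelled tissue was therefore not checked against markers.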

Additional observations from a re-analysis of the deposited data

How the results depend on the processing

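Every region stayed shorter in HD under each alternative run, and 83 of 105 recomputed values stayed the same by the rule used. That rule asked for an equal value, for log2 ratios to 2 decimals, and for shares of regions a value within 1.5-fold. At Apc, Pex5l and H3f3b each library had a single peak, scoring above 100, with no other peak within 1 kb or in the window. There, merging, the minimum score, the whole window and the outer span could change nothing, so the count does not measure robustness. After subtracting the median of strong regions the log2 ratio was -1.08 for Apc, -0.94 for Pex5l, -0.82 for Ppp3ca and -0.81 for H3f3b. Ppp3ca alone depended on which peaks were counted. With a minimum score of 100 its log2 ratio was -1.10, its right edge shift 4917 bp, and its HD pieces 1 with a gap of 0 bp. With every peak touching the window these were -1.09 and 8352 bp, with 2 WT pieces. With peaks within 1 kb merged it had 1 HD piece and a gap of 0 bp. The share of strong regions over 2-fold shorter, 0.0365%, was 0.122% after merging, 0.122% with the minimum score, 0.0796% with a score limit of 500 and 0% with 2000. That over 1.5-fold longer, 0.0851%, was 0.207% after merging, 0.133% with a limit of 500 and 0.149% with 2000. That with more HD than WT peaks, 2.87%, was 0.622% after merging and 1.52% with the minimum score. The cause was not tested. No paired analysis was possible because there is 1 library per genotype.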
